A study of Homo sapiens with 6 samples.

Results

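The BH3-only genes encode the proteins that start mitochondrial apoptosis. Their 8 members here, chosen by symbol, were BBC3, PMAIP1, BCL2L11, BID, BAD, BIK, HRK and BMF, each with 1 row among the 30676 genes of the deposited table. RNA was sequenced from cells labelled HCT116, a human colorectal cancer line, with wild type given as the genotype. The GIA group had 24 hours of GIA, a genistein isoflavonoid alkaloid, at 10 µM, and the DMSO group had 24 hours of the vehicle DMSO at 0.1%, with 3 libraries each and all at 1% oxygen. A DMSO content is stated for the control libraries only, and no group under normal oxygen was included. Separate cultures are not stated for the libraries of a group, so a p-value here speaks of the spread between libraries, whether biological or technical.

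In a healthy cell the guardians BCL2, BCL2L1 and MCL1 hold the pore formers BAX and BAK1 in check at the mitochondrial membrane. A BH3-only protein inserts its BH3 helix into a groove of a guardian, or binds BAX or BAK1 directly, and once the pore opens cytochrome c leaves the mitochondrion and caspases are activated. Much of the control of these genes is known to be transcriptional (BBC3, PMAIP1, BCL2L11, HRK), but BID is activated by cleavage and BAD by loss of phosphate, steps that RNA does not report.

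The defining markers of an epithelial line were only partly present. Of 7 epithelial markers, 5 had a mean of at least 0.5 FPKM (fragments counted per kilobase, set relative to library size), among them the keratin KRT8 at 134 to 151 FPKM over the 6 libraries. EPCAM, at 0.119 to 0.335 FPKM, and the E-cadherin gene CDH1, at 0.0165 to 0.0490 FPKM, were near 0 in every library of both groups. Of 5 leukocyte and 5 endothelial markers, 3 and 4 had a row, and each list summed to at most 0.213 FPKM in any library. Of 5 fibroblast markers, 3 had a row and 2 were above 0.5 FPKM, DCN and COL1A1, while COL3A1 was at or near 0, and the list summed to 13.6 to 19.2 FPKM in GIA libraries and 13.8 to 14.9 FPKM in DMSO libraries. The cells are therefore called by their label here, and the part of cell identity in the values below was not tested. Library totals were 64804849 to 67835059 estimated counts with GIA and 55725249 to 63542466 with DMSO.

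The feature that makes these genes a family is short. The coding stretch of 66 bases around the BH3 core is shown for each member, since the rest of the proteins has little in common. Capitals mark the 6 codons of the core, which begin with leucine and end with a small residue and aspartate. Sequences are 5′ to 3′ on the coding strand, from GENCODE 29 transcripts on GRCh38.
BBC3: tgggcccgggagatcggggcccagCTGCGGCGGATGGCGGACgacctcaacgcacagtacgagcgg
BCL2L11: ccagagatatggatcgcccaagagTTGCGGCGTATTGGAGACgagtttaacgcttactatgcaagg
BID: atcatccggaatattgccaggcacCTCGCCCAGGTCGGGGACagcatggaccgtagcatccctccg
PMAIP1: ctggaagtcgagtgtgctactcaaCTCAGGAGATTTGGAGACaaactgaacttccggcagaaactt
BAD: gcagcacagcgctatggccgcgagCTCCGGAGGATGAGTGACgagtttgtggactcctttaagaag
HRK: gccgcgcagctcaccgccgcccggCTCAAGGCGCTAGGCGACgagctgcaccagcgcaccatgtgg
BIK: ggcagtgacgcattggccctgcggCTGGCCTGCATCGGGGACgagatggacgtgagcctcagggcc
BMF: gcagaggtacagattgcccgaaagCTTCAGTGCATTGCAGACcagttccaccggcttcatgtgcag

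Of the 18 core bases, 5 were the same in all 8 genes, among them the whole last codon, and a pair of members shared between 7 (BID and BMF) and 13 core bases (BBC3 with BAD, BBC3 with BCL2L11, BID with BIK) over 28 pairs. The cores were found by a search that required leucine at codon 1 and isoleucine, valine, methionine, leucine or phenylalanine at codon 4. It also required glycine, alanine or serine at codon 5, aspartate at codon 6 and glutamate, aspartate, serine, lysine or glutamine next. Each of the 5 shared bases except the last was thus fixed by the search, which also raised the count shared by every pair. The stretch lies in exon 3 of 4 of BBC3 (chr19:47226567-47226632, minus strand), exon 4 of 5 of BCL2L11 (chr2:111150079-111150144, plus strand), exon 4 of 6 of BID (chr22:17739403-17739468, minus strand), exon 2 of 2 of PMAIP1 (chr18:59902649-59902714, plus strand), exon 1 of 2 of HRK (chr12:116881158-116881223, minus strand) and exon 3 of 4 of BMF (chr15:40104183-40104248, minus strand). In BAD (chr11:64270335-64271675, minus strand) and BIK (chr22:43124179-43127757, plus strand) it runs over an intron between exons 2 and 3. Exon numbers are those of 1 GENCODE 29 transcript per gene and may differ in other transcripts. The transcript used has 414 coding bases for BCL2L11 and 723 for BID. A looser search, without the conditions on codon 4 and on the residue after the core, matched once in 7 proteins. In BID, which held a further match, the only match to the full search was taken. The counts are sums over all transcripts of a gene, 1 for BIK and up to 13 for BCL2L11, so splice forms that differ in the BH3 stretch were not told apart. BAD overlaps GPR137 and BCL2L11 overlaps MIR4435-2HG on the opposite strand, and reads may be mixed within these pairs if counting did not use strand.

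All 8 members were detected in all 6 libraries, at levels that spanned more than an order of magnitude. From the highest to the lowest, the means over 6 libraries were 14.4 ± 0.576 FPKM for PMAIP1, 10.6 ± 0.426 for BID, 4.98 ± 0.723 for BAD, 4.68 ± 0.929 for BIK, 2.65 ± 0.293 for BBC3, 2.47 ± 0.160 for BCL2L11, 1.84 ± 0.152 for HRK and 0.633 ± 0.153 for BMF (SD, n = 6). The ranges over 6 libraries did not touch between most neighbours in this order. BAD and BIK overlapped, with BAD higher in 4 of 6 libraries, and BBC3 and BCL2L11 overlapped, with BBC3 higher in 5 of 6. PMAIP1 lay above 76.8% of the 13721 genes with a mean of at least 0.5 FPKM, BAD above 48.8% and BMF above 4.69%. PMAIP1 and BID together held most of the family's summed level, 34.4% and 24.8% with GIA and 33.8% and 25.5% with DMSO. FPKM divides by length, and the estimated counts gave another order: HRK, at 1.84 FPKM, had 760 to 1072 counts per library, and BIK, at 4.68 FPKM, had 207 to 362. The lowest count of any member was 189 (BMF) and the highest 3662 (BID).

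**Figure D1:**
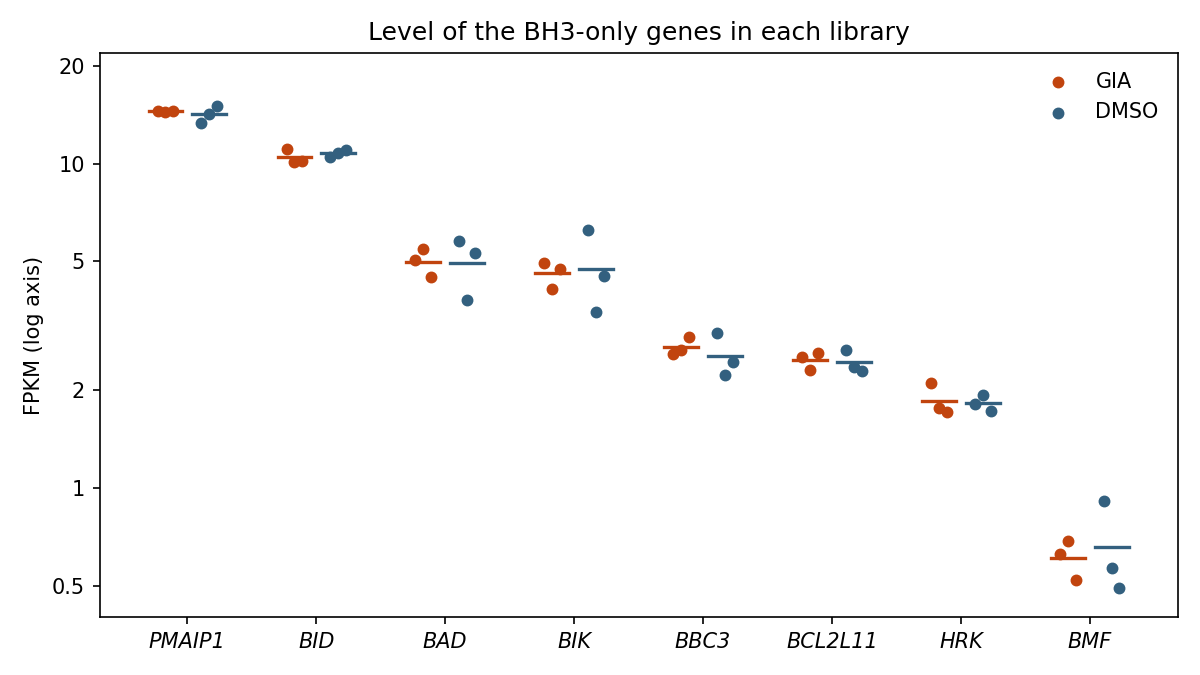
Each point is the FPKM of 1 library on a log axis, with GIA (orange) left of DMSO (blue) for each gene and a bar at the mean of 3 libraries. The order of levels is the same in both groups, and the GIA and DMSO points of every gene overlap.

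None of the BH3-only transcripts was called in GIA against DMSO, and each difference between group means was smaller than the range of the 3 DMSO libraries, as for 79.2% of all genes tested. Of the 8 members, 0 passed edgeR's quasi-likelihood test at a Benjamini-Hochberg adjusted p under 0.05, where the background was 0% of 13721 genes tested (0 genes). Over all genes there were 5 calls without GIA library 3, 2 each without DMSO library 2 or 3, 1 without GIA library 1 and 0 without either other library, none of them a member. At an unadjusted p under 0.05 there were 0 members, against 630 of all genes tested (4.59%). DESeq2 and limma on log2(FPKM + 0.5) each called 0 members and 0% of genes as well, with 4.74% and 4.88% of genes at an unadjusted p under 0.05. The groups were apart in FPKM for 0 of 8 members, against 11.2% of genes tested. The fold change was above 1 for 5 members and below 1 for 3, where 50.2% of genes tested lay above 1. The median log2 fold change was 0.014 over the 8 members and 0.00038 over all genes tested, and the median size without sign was 0.033 over the members and 0.060 over all genes tested. In bulk RNA, fewer cells with a transcript and less of it per cell cannot be told apart. The median over the members was 0.11 without DMSO library 1 and was negative without GIA library 1 (-0.039), DMSO library 2 (-0.021) or DMSO library 3 (-0.020).

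The intervals bound how large a difference these libraries leave room for. For 7 members the 95% interval stayed inside 1.5-fold in both directions, and for all 8 inside 2-fold, without adjustment for their number. BID and PMAIP1, the most abundant, had the narrowest intervals, which reached at most 1.12-fold for each. BMF, the least abundant, had the widest, from 0.634-fold to 1.35-fold. Any spread between cultures that these libraries do not sample is outside the intervals.

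**Figure D2:**
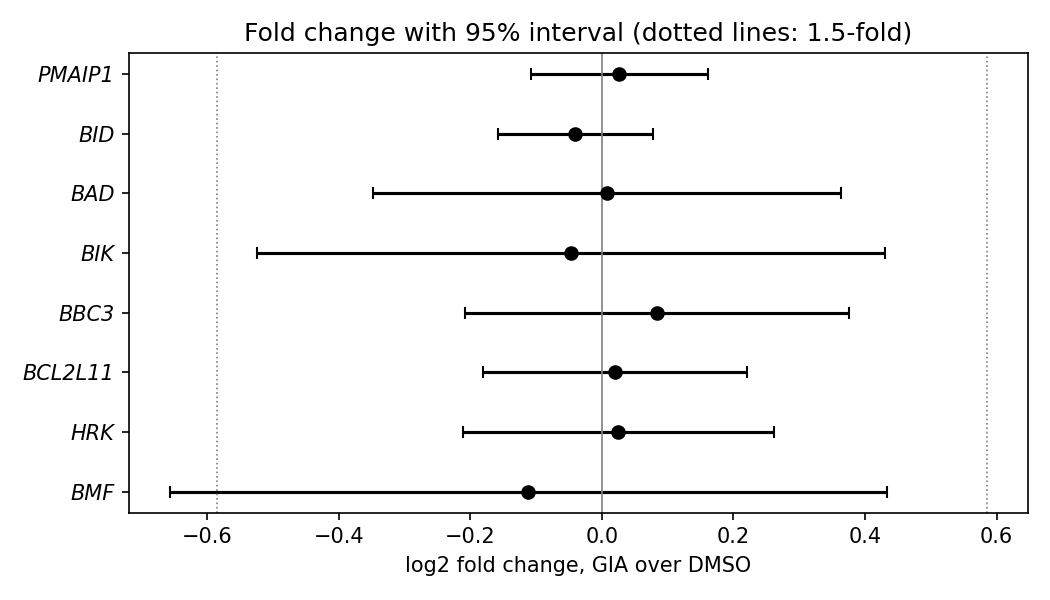
Points are log2 fold changes, GIA over DMSO, from edgeR, with 95% intervals, for the 8 genes in order of level from top to bottom. All intervals include 0, and the interval of BMF alone passes a dotted line at 1.5-fold.

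BBC3, BCL2L11 and BID encode the members that bind all guardians and are also known to activate BAX and BAK1. BBC3 (PUMA; chr19:47220822-47232766) had 2.59, 2.67 and 2.93 FPKM in GIA libraries 1 to 3, against 3.01, 2.22 and 2.46 FPKM in DMSO libraries 1 to 3. The highest and the lowest value were both in DMSO libraries, with the GIA values between them. The log2 fold change of BBC3 was 0.084 (SE 0.13, adjusted p = 0.925 by edgeR), with 0.21 or -0.0065 when DMSO library 1 or 2 was left out. BCL2L11 (BIM; chr2:111119378-111168445), whose protein is marked for destruction by ERK, had 2.53, 2.32 and 2.61 FPKM with GIA and 2.67, 2.37 and 2.30 FPKM with DMSO. The groups overlapped throughout, and the log2 fold change of 0.020 (SE 0.089, adjusted p = 0.977 by edgeR) turned negative without GIA library 3 (-0.018), DMSO library 2 (-0.0025) or DMSO library 3 (-0.024) and was 0.088 without DMSO library 1. BID (chr22:17734138-17774495), which caspase 8 cleaves to link death receptors to mitochondria, had 11.1, 10.2 and 10.2 FPKM with GIA and 10.5, 10.8 and 11.0 FPKM with DMSO. GIA library 1 was the highest of the 6 and the other GIA libraries the lowest, so the groups overlapped. The log2 fold change of BID was -0.041 (SE 0.052, adjusted p = 0.909 by edgeR) and stayed negative with each library left out, between -0.088 without GIA library 1 and -0.012 without GIA library 2.

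PMAIP1, BAD and HRK encode members that bind only some guardians. PMAIP1 (NOXA; chr18:59899996-59904305), which binds MCL1 and promotes its breakdown, had 14.6, 14.5 and 14.6 FPKM in GIA libraries, against 13.4, 14.3 and 15.1 FPKM in DMSO libraries. The GIA libraries were nearly equal, with a coefficient of variation of 0.382%, and lay inside the range of the DMSO libraries, whose coefficient of variation was 6.12%. Of genes at a like level, 99.3% had a spread at least as wide as that of PMAIP1 among the GIA libraries. The log2 fold change of PMAIP1 was 0.026 (SE 0.060, adjusted p = 0.949 by edgeR), with -0.017 or 0.070 when DMSO library 1 or 3 was left out. BAD (chr11:64269830-64284665), held by 14-3-3 proteins while phosphorylated, had 5.04, 5.46 and 4.49 FPKM with GIA and 5.77, 3.79 and 5.31 FPKM with DMSO. DMSO library 2 stood lowest and DMSO library 1 highest. The log2 fold change of BAD was 0.0079 (SE 0.16, adjusted p = 0.995 by edgeR), and it ranged from -0.15 without DMSO library 2 to 0.13 without DMSO library 1, with -0.0014, -0.056 and 0.076 when GIA library 1, 2 or 3 was left out and 0.059 when DMSO library 3 was. HRK (chr12:116856144-116881441), known best from dying neurons, had 2.10, 1.76 and 1.71 FPKM with GIA and 1.82, 1.93 and 1.72 FPKM with DMSO. GIA library 1 stood above the rest, and the log2 fold change of 0.025 (SE 0.10, adjusted p = 0.977 by edgeR) was -0.077 without it, -0.015 without DMSO library 3 and 0.079 without GIA library 3.

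BIK and BMF act from other places in the cell, BIK mainly at the endoplasmic reticulum and BMF from the myosin motors, which it leaves when a cell detaches. BIK (chr22:43110750-43129712) had 4.95, 4.10 and 4.75 FPKM in GIA libraries, against 6.25, 3.50 and 4.51 FPKM in DMSO libraries. DMSO library 1 was the highest and DMSO library 2 the lowest of the 6, so that the GIA values lay between DMSO values. The log2 fold change of BIK was -0.047 (SE 0.21, adjusted p = 0.978 by edgeR), with 0.032 when GIA library 2 was left out and 0.20 or -0.22 when DMSO library 1 or 2 was. BMF (chr15:40087890-40108879) had 0.625, 0.684 and 0.520 FPKM with GIA and 0.910, 0.568 and 0.492 FPKM with DMSO. DMSO library 1 stood apart as the highest. The log2 fold change of BMF was -0.11 (SE 0.24, adjusted p = 0.948 by edgeR), with 0.20 or -0.28 when DMSO library 1 or 3 was left out.

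The DMSO libraries spread more than the GIA libraries, by the ratio of highest to lowest FPKM, for 6 of 8 members, against 40.2% of all genes tested, and BID and HRK went the other way. The highest DMSO value was 1.79-fold the lowest for BIK, 1.85-fold for BMF, 1.52-fold for BAD and 1.35-fold for BBC3, while the group means, GIA over DMSO, stood at ratios of 0.968, 0.929, 1.01 and 1.06. Of genes between 0.5 and 2 times the level of a member, the share with a DMSO ratio at least as large as its own was 1.61% for BIK, 2.57% for BAD, 12.9% for BBC3 and 21.6% for BMF. For PMAIP1 it was 14.8%, for BCL2L11 42.1%, for BID 65.1% and for HRK 65.5%. Among the GIA libraries the same ratio was 1.21 for BIK and 1.217 for BAD. DMSO library 1 held the highest value of 5 members (BAD, BIK, BBC3, BCL2L11, BMF), where 14.3% of all genes tested were highest in that library, and DMSO library 2 held the lowest value of 3 (BAD, BIK, BBC3), where 17.9% were lowest. Over all genes tested GIA library 2 held most extremes, the highest value of 29.6% and the lowest of 23.9%, but it was highest for 0 members and lowest for 1 (BID). PMAIP1 went the other way and was lowest in DMSO library 1. These are descriptions of single libraries, chosen after their values were seen. BNIP3, which encodes a BH3-related mitophagy receptor induced by low oxygen, had 10.4, 7.04 and 9.08 FPKM in DMSO libraries 1 to 3. BAD, BIK and BBC3 had the same order there. In GIA libraries 1 to 3 BNIP3 had 8.72, 13.2 and 10.5 FPKM, an order that BAD, BIK and BBC3 did not have. The part of BNIP3 in this spread was not tested.

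**Figure D3:**
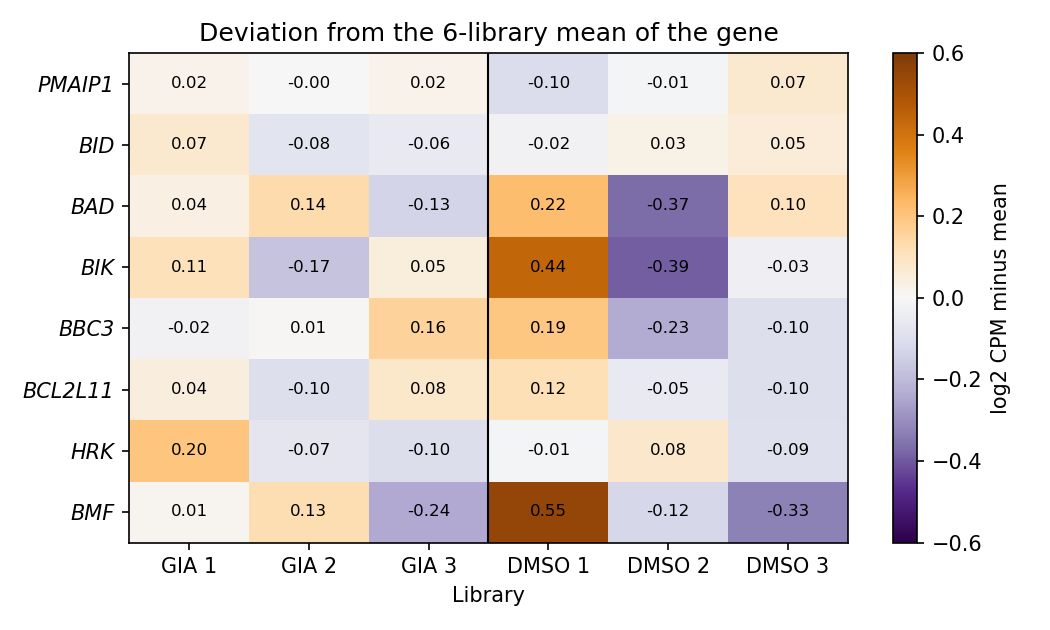
Each cell is the log2 CPM (counts scaled to library size) of a gene in 1 library minus its mean over the 6 libraries, with GIA libraries left of the line and DMSO libraries right of it. The largest deviations are in DMSO library 1 (0.55 for BMF, 0.44 for BIK) and DMSO library 2 (-0.39 for BIK, -0.37 for BAD), and no gene has all its GIA libraries above or all below its DMSO libraries.

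**Figure D4:**
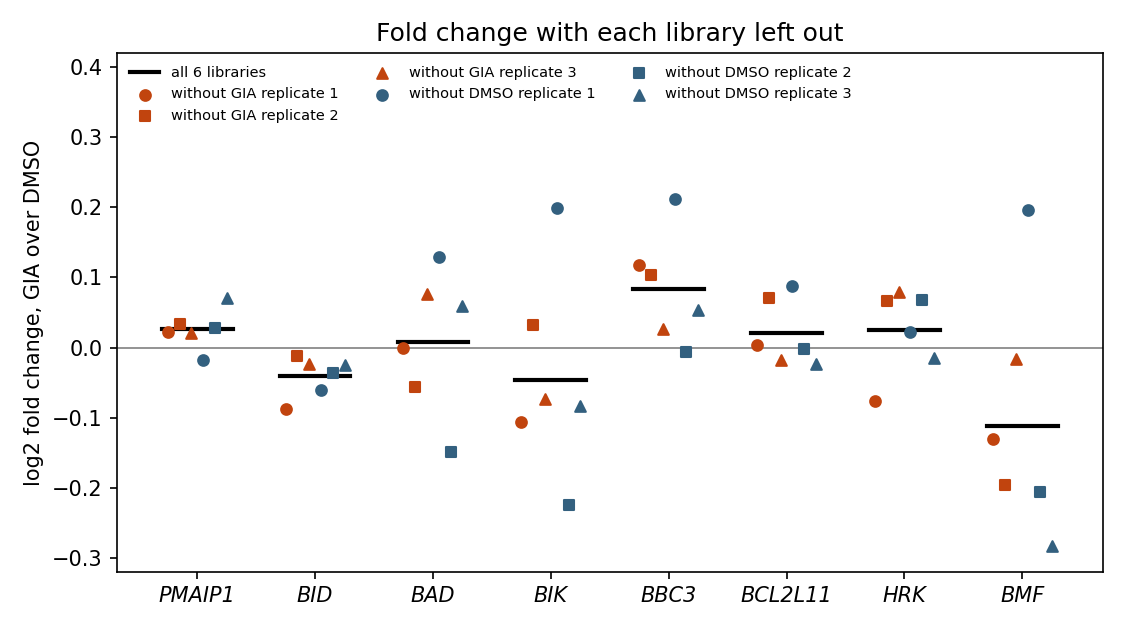
Bars are log2 fold changes, GIA over DMSO, with all 6 libraries, and points are the values with 1 library left out (orange for a GIA library, blue for a DMSO library). Points fall on both sides of 0 for 7 genes, and those of BID all lie below 0.

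Members varied together to different degrees over the 6 libraries. On log2 CPM, BBC3 and BIK had a Pearson r of 0.83 and BCL2L11 and BIK 0.77, while PMAIP1 and BMF had -0.92. These values rest on 6 libraries that differ in group and in depth, and they are descriptions. Among 6683 protein-coding genes with a mean of at least 5 FPKM, the patterns most like the members' were those of TOM1L1 (r = 0.98) and NXF3 (0.98) for BBC3, PGAP6 (0.98) and FAM216A (0.96) for BCL2L11, and ZNF281 (0.99) and UBR4 (0.99) for BID. For PMAIP1 they were STX4 (0.99) and PAPSS1 (0.98), for BAD E2F1 (0.97) and HSF2 (0.97), for BIK OSTF1 (0.98) and AASDHPPT (0.97), and for HRK LTV1 (0.98) and SRP68 (0.98). Between 6 and 31 genes reached an r of at least 0.95 for each of these 7 members. The genes named are the highest of 6683 correlations over 6 libraries. How many would reach 0.95 among unrelated genes was not worked out, so no shared control is read from them. BMF was below 1 FPKM and was not matched.

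The partners of the BH3-only proteins gave no called gene either. Of 63 genes in 7 lists, 58 were tested, 0 rose, 0 fell and 58 did not pass (smallest adjusted p = 0.875 by edgeR). At an unadjusted p under 0.05 by edgeR there were 3 of the 58 (TNFRSF1A, CYCS and CASP8), against 4.59% of all genes tested. The groups were apart in FPKM for 10 (17.2%), against 11.2% of all genes tested. DESeq2 and limma also called 0 of the 58. Among 4 tested guardians the median log2 fold change was -0.0098, and among the 3 effectors it was -0.072 with all 3 negative, where all genes tested had 0.00038. MCL1, the guardian that PMAIP1 binds, had 91.2, 92.9 and 90.5 FPKM with GIA and 91.0, 91.4 and 89.7 FPKM with DMSO, and BCL2L1, a target of BAD and HRK, had 21.8, 18.2 and 21.4 FPKM with GIA and 20.6, 23.6 and 21.0 FPKM with DMSO. MCL1 was thus far above PMAIP1 in every library, and its groups overlapped. GIA library 2 was the lowest of 6 for BCL2L1. The log2 fold changes were 0.012 (SE 0.028) for MCL1, -0.088 (SE 0.078) for BCL2L1, -0.072 (SE 0.074) for BAX and -0.086 (SE 0.054) for BAK1. Without GIA library 2, BCL2L1 had -0.0079, BAX -0.0027 and BAK1 -0.050, and with GIA library 1 left out instead they had -0.14, -0.14 and -0.13. MCL1 ran from 0.0025 to 0.018 with 1 library left out.

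Levels of a BH3-only gene relative to a guardian also did not separate the groups. The log2 ratio of PMAIP1 to MCL1 in FPKM was -2.65, -2.68 and -2.63 in GIA libraries and -2.77, -2.68 and -2.57 in DMSO libraries. The log2 ratio of BAD to BCL2L1 was -2.11, -1.74 and -2.25 with GIA and -1.84, -2.64 and -1.99 with DMSO, with the highest value in GIA library 2 and the lowest in DMSO library 2. GIA minus DMSO was 0.017 for PMAIP1 to MCL1 and 0.12 for BAD to BCL2L1, each with p = 0.8 by a two-sided exact permutation test (adjusted over the 2 ratios p = 0.8; the smallest possible is 0.1). The first turned negative without DMSO library 1 (-0.030), and the second without GIA library 2 (-0.029) or DMSO library 2 (-0.12).

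The lists of genes that act upstream and downstream had medians close to 0 as well, though single genes lay further away. Among 9 tested transcription factors known to act on BH3-only genes, the median log2 fold change was -0.019, 4 above 0 and 5 below. Their values ran from -0.13 to 0.19. FOXO3, an activator of BCL2L11 and BBC3, had 0.032 (SE 0.060) and -0.017 without GIA library 2, DDIT3 (CHOP) -0.13 (SE 0.076) and ATF4 0.029 (SE 0.028). With 1 library left out, DDIT3 ran from -0.21 without DMSO library 2 to -0.083 without DMSO library 3, and ATF4 from 0.018 to 0.042, both without a GIA library. Among 18 partners and modifiers of the proteins the median was -0.022, with 6 positive and 12 negative. DYNLL1, the dynein light chain that holds BCL2L11 protein, had 52.6, 47.9 and 52.9 FPKM with GIA and 53.8, 56.8 and 54.2 FPKM with DMSO. Its groups were apart, with a log2 fold change of -0.11 (SE 0.049, adjusted p = 0.875 by edgeR). With 1 library left out, DYNLL1 ran from -0.13 without GIA library 3 to -0.056 without GIA library 2. DYNLL2, which holds BMF, had -0.048 (SE 0.039) and the 14-3-3 gene YWHAZ -0.024 (SE 0.028). The value for YWHAZ was -0.012 or -0.013 when GIA library 2 or DMSO library 1 was left out, and -0.036 without GIA library 1. CASP8, the protease that cleaves BID, had 4.61, 4.83 and 4.71 FPKM with GIA and 5.15, 5.09 and 5.04 FPKM with DMSO. The groups were apart for CASP8 too, with a log2 fold change of -0.11 (SE 0.047, unadjusted p = 0.0399, adjusted p = 0.875 by edgeR). The 7 tested genes of death receptors and their adaptors had a median of 0.0014 and ran from -0.14 to 0.14. TNFRSF1A, a receptor for TNF, had 29.5, 32.1 and 30.4 FPKM with GIA and 26.9, 26.9 and 29.3 FPKM with DMSO. Its groups were apart, with a log2 fold change of 0.14 (SE 0.046, unadjusted p = 0.0135, adjusted p = 0.875 by edgeR). TNFRSF10A, a receptor for TRAIL, had 11.3, 9.47 and 10.5 FPKM with GIA and 11.3, 11.4 and 11.6 FPKM with DMSO, narrowly apart, with a log2 fold change of -0.14 (SE 0.071, adjusted p = 0.875 by edgeR). TNFRSF10B, another receptor for TRAIL, lay at the median (0.0014, SE 0.043). The value for TNFRSF10B was -0.036 when GIA library 1 was left out, and -0.0090 or -0.0083 when DMSO library 1 or 3 was.

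Downstream of the pore, 11 genes of the apoptosome, the caspases and their inhibitors lay at 0.034 by their median log2 fold change, 7 above 0 and 4 below. CYCS, which encodes cytochrome c, had 49.1, 46.9 and 50.5 FPKM with GIA and 54.7, 52.6 and 51.5 FPKM with DMSO. The groups were apart, and the log2 fold change of -0.12 (SE 0.040) did not pass (unadjusted p = 0.0171, adjusted p = 0.875 by edgeR). The initiator CASP9 had 0.11 (SE 0.089), with 0.014 without GIA library 2 and 0.16 without GIA library 1. APAF1, the scaffold of the apoptosome, had 0.067 (SE 0.11), with -0.027 when GIA library 2 was left out and 0.16 or -0.00094 when DMSO library 1 or 2 was. XIAP, a caspase inhibitor, had 0.089 (SE 0.048), with 0.056 without GIA library 3 and 0.12 without DMSO library 1. The other BCL2-related genes had 6 tested members with a median of 0.046. BNIP3 had 8.72, 13.2 and 10.5 FPKM with GIA and 10.4, 7.04 and 9.08 FPKM with DMSO. Its log2 fold change of 0.28 (SE 0.16) ran from 0.12 without GIA library 2 to 0.42 without DMSO library 1.

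**Figure D5:**
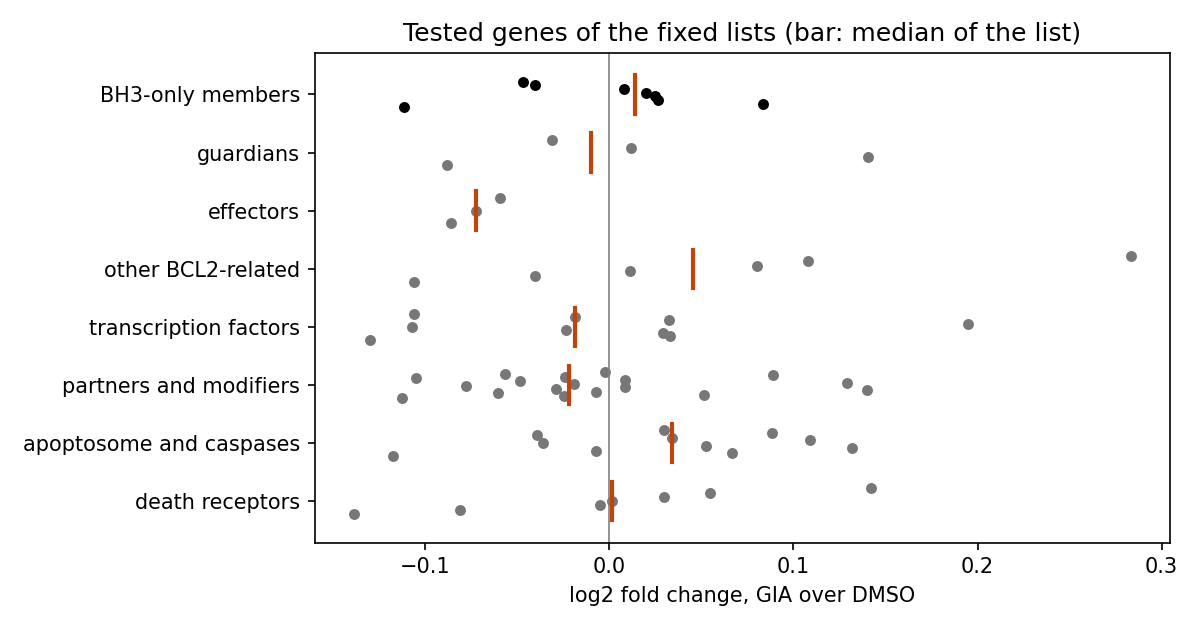
Each point is the log2 fold change, GIA over DMSO, of 1 tested gene, in rows for the 8 BH3-only genes and the 7 lists, with a bar at the median of the row. The rows lie around 0, between -0.14 (TNFRSF10A) and 0.28 (BNIP3).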

How the data were processed

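The 3 GIA and 3 DMSO libraries were strand-specific and came from TRIzol RNA, per the labels' protocols. HISAT2 2.2.1, StringTie 2.1.6, cutadapt, FastQC 0.10.1, DESeq2 1.22.2 and the build GRCh38 stand in the submitters' processing notes, with no role for each. No source used here names the annotation release. The deposited table holds FPKM values and estimated counts per gene and library, per the file headers. Estimated counts deposited by the authors were whole numbers with an excess at 4 (6798 values, 4183 at 3, 2499 at 5), so 1 fragment may be worth about 4 counts and the counting precision is lower than the counts alone would give.

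From these, genes with a mean of at least 0.5 FPKM were tested with edgeR 4.0.16 in R 4.3.3 (quasi-likelihood, TMM, two-sided, no covariate, Benjamini-Hochberg over 13721 genes). Standard errors were derived from the F statistic, with 95% intervals by the t distribution. Log2 CPM used a prior count of 2. Alternatives were DESeq2 1.42.0, limma 3.58.1 on log2(FPKM + 0.1, 0.5 or 1), library totals, no filter, at least 5 FPKM, counts divided by 4, the replicate number as a block, and each library left out. The named genes are the 8 members, 17 genes of the lists and the 2 genes most like each member. CASP8, CYCS, DYNLL1, TNFRSF1A and TNFRSF10A were given in full, and the libraries that stand apart were described, after their values were seen. The members and lists were chosen with earlier results of these data known, and 1 gene of the lists is not reported here.

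Gene bounds are those of the deposited table on GRCh38; 2 of 8 were the same in GENCODE 29 and the others differed by at most 275 bases. The libraries keep strand, but no source used here says whether counting used it.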

Additional observations from a re-analysis of the deposited data

How the results depend on the processing

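The calls for the 8 members and for the 58 list genes were 0 under each alternative run. With all 6 libraries, the sign of the fold change was kept for each of the 25 fixed genes in each alternative that tested it; with at least 5 FPKM, 15 of the 25 were tested, among them 2 members, and no median over the members was taken. The count over all genes was 3 with the replicate block and 0 to 5 with 1 library left out. The labels give only numbers, with no shared day or batch stated. The deviations of same-numbered libraries from their group means correlated at 0.052, 0.033 and 0.097, so these libraries were not treated as pairs. Of 6 libraries, 5 correlated best with their own number, at most a weak hint from the data and not the design. Deviations within a group sum to 0, so the 6 best matches are not independent, and pairing was not tested. With the replicate block the median of the members was 0.020, against 0.014.

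With 1 library left out, the log2 fold change ran from -0.0065 to 0.21 for BBC3, from -0.017 to 0.070 for PMAIP1, from -0.024 to 0.088 for BCL2L11, from -0.15 to 0.13 for BAD, from -0.22 to 0.20 for BIK, from -0.077 to 0.079 for HRK and from -0.28 to 0.20 for BMF. It ran from -0.017 to 0.074 for FOXO3, from -0.027 to 0.16 for APAF1 and from -0.036 to 0.033 for TNFRSF10B. The log2 ratio difference ran from -0.030 to 0.069 for PMAIP1 to MCL1 and from -0.12 to 0.28 for BAD to BCL2L1. The cause was not tested. BMF and BIK had the fewest estimated counts, 189 to 305 and 207 to 362 per library, and the part of depth in their wide intervals was not tested.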
